A study of Homo sapiens with 9 samples.

Results

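Described here are the mRNAs of 10 genes that hold mTORC1 in check, carry its activating signal or stand between it and translation: DDIT4, DDIT4L, EIF4EBP1, EIF4EBP2, DEPTOR, AKT1S1, RPTOR, RHEB, TSC1 and TSC2. They were taken by name from a table of 70116 gene IDs, with earlier results of these data known, and all 10 had a row. After a filter on low counts 9 of the 10 were tested, and DDIT4L was not, because it was listed at 0 in every library. mTORC1 is a protein kinase complex of the lysosomal surface that is switched on by the small GTPase RHEB when growth factors, amino acids and energy suffice, and that drives cap-dependent translation mainly by phosphorylating the 4E-BPs. An unphosphorylated 4E-BP holds the cap-binding protein eIF4E away from the initiation machinery. Stress reaches the complex through DDIT4, an inducible protein that acts through the TSC1 and TSC2 complex, which in turn inactivates RHEB.

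Poly(A) RNA was sequenced from U2OS, an established human osteosarcoma cell line, in 9 libraries that form 3 groups of 3. PERK knockout U2OS cells (CRISPR/Cas9) and wild-type U2OS cells were each given palbociclib for 4 days. The remaining group was wild-type U2OS cells given vehicle, for which no duration was listed. Palbociclib inhibits the cell cycle kinases CDK4 and CDK6, and PERK, encoded by EIF2AK3, is a stress sensor of the endoplasmic reticulum whose phosphorylation of eIF2α raises translation of the transcription factor ATF4. Whether the knockout is 1 clone or a pool, and whether the 3 numbered sets were separate cultures, is not stated in the labels, so the p-values speak for the spread among these 9 libraries alone, and that spread could be technical. The genotypes were compared on the drug alone, and PERK knockout cells on vehicle were not analysed here. Levels are CPM values (counts divided by the TMM-scaled library size and brought to a common total), errors of levels are SDs with n = 3, and adjusted p-values come from edgeR's quasi-likelihood F test over 19408 genes, called under 0.05. In bulk RNA, fewer cells with an mRNA and less of it per cell cannot be told apart, and neither proteins nor their phosphorylation were measured.

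EIF2AK3 stood at 18.7 ± 0.97 CPM in knockout cells on palbociclib, 34.7 ± 2.64 in wild-type cells on palbociclib and 33.1 ± 1.57 in wild-type cells on vehicle, so the targeted mRNA was lower in the knockout but still present (log2 fold change -0.89 ± 0.068 SE against wild type on the drug, edgeR adjusted p = 5.98e-09). Library totals ran from 33674039 to 42577874 counts. Of 10 osteoblast lineage markers, 6 averaged at least 1 CPM over the 9 libraries. The 10 summed to 6484 to 8346 CPM in the knockout, 6297 to 7469 in wild-type cells on palbociclib and 4082 to 4453 on vehicle. SP7, a defining marker of committed osteoblasts, was at 0 in every library. The 8 epithelial markers summed to 568 to 591 CPM in the knockout, 866 to 919 in wild-type cells on palbociclib and 656 to 690 on vehicle (KRT8 and KRT18 among them), and their part in the results below was not tested. The 8 haematopoietic markers summed to at most 1.27 CPM in any library, and the 6 endothelial markers to at most 7.99. The 13 mitochondrially encoded mRNAs summed to 32980 to 40820 CPM in the knockout, 34020 to 42070 in wild-type cells on palbociclib and 28170 to 37350 on vehicle, with overlapping ranges.

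DDIT4, also known as REDD1, was the member that palbociclib changed most. In knockout cells on palbociclib it stood at 113, 138 and 161 CPM in sets 1 to 3, in wild-type cells on palbociclib at 129, 148 and 195, and in wild-type cells on vehicle at 54.3, 81.8 and 93.0. Every palbociclib library of either genotype lay above every vehicle library, while the knockout and wild-type ranges on the drug overlapped. In wild-type cells the level was 157 ± 34.1 CPM on palbociclib and 76.4 ± 19.9 on vehicle, a 2.06-fold rise (1.04 ± 0.26 SE on the log2 scale, edgeR adjusted p = 0.018). This call held under all 17 alternative analyses (adjusted p at most 0.0495). Within sets 1, 2 and 3 the wild-type ratio of palbociclib to vehicle was 2.37, 1.81 and 2.1.

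DDIT4 was also high in the knockout on the drug. At 137 ± 24.2 CPM, knockout cells on palbociclib were above wild-type cells on vehicle (log2 fold change 0.85 ± 0.26, edgeR adjusted p = 0.0334). That call was lost without the low-count filter (adjusted p = 0.0709) and without any of 5 libraries: set 1 or 2 of vehicle (0.0703 and 0.072), set 2 of wild-type palbociclib (0.0549), and set 2 or 3 of the knockout (0.0795 and 0.102). Those fits had no term for the set. With the set number as a block the difference was 0.86 ± 0.053 (edgeR adjusted p = 3.01e-13). Within sets 1 to 3 the ratio of knockout to vehicle was 2.08, 1.68 and 1.735. Against wild-type cells on the drug the knockout difference was -0.20 ± 0.26 on the log2 scale and was not called (edgeR adjusted p = 0.637). DDIT4 was the member that varied most between sets: set 3 exceeded set 1 in all 3 groups, by 0.62 on the log2 scale in the model with the set number as a block (adjusted p = 8.09e-08 between sets, a call made for 8.07% of tested genes). In that blocked model the knockout level was below wild type on the drug (-0.19 ± 0.052, edgeR adjusted p = 0.00498), and the within-set ratios of knockout to wild type were 0.879, 0.928 and 0.828. The block thus changed the call and not the size of the difference.

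**Figure D1:**
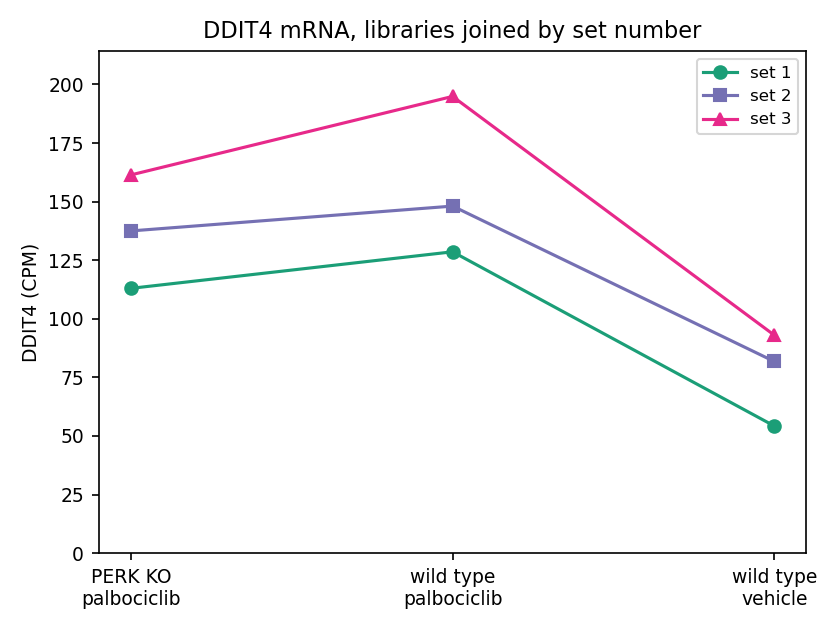
DDIT4 mRNA in CPM (y axis, from 0) in PERK knockout cells on palbociclib, wild-type cells on palbociclib and wild-type cells on vehicle (x axis), 1 point per library, with the libraries of a set joined by a line. In each of the 3 sets the wild-type palbociclib library is highest and the vehicle library lowest, and set 3 lies above set 2 and set 2 above set 1 in every group.

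The gene for DDIT4 is on chromosome 10, 72273920 to 72276036 on the plus strand of GRCh38 (ENSG00000168209.6, protein coding). Annotated antisense exons cover 41.2% of its exonic bases, and no gene overlapping DDIT4 was listed with counts. The sources used here give no strand setting for the counting, and reads of the 2 strands cannot be told apart. The 250 bases before the RefSeq start (GRCh38.p14) are shown for DDIT4 and EIF4EBP2, members that rose on the drug, and for RHEB, the member that fell, at chr10:72273674-72273923 (plus strand), chr10:70403895-70404144 (plus strand) and chr7:151519896-151520145 (minus strand). Capitals mark matches, on either strand, to any of 7 motifs: TGATGNAA (the ATF4 and C/EBP composite core), TGACGTCA (the cAMP response element), CACGTG (the E-box), ACGTG (the hypoxia response core, which every E-box contains), TGTTTAC (a FOXO site), CCAAT (read ATTGG on the other strand) and TATAAA (the TATA box).
DDIT4: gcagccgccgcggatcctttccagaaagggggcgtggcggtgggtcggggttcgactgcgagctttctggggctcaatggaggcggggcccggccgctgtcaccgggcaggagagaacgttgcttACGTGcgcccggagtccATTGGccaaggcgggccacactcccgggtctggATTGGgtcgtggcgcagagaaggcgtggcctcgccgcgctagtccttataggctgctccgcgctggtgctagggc
EIF4EBP2: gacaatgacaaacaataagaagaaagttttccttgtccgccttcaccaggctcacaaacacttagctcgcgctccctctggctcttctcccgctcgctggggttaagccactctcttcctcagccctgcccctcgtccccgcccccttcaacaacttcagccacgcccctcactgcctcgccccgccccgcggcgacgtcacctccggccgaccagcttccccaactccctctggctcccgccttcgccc
RHEB: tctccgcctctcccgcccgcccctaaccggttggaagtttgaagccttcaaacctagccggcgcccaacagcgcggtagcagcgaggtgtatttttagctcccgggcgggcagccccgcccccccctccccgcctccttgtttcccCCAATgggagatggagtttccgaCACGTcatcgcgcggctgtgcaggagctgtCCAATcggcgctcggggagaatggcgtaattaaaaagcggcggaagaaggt

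The DDIT4 window held ACGTG starting 125 bases before the start and CCAAT at 108 and 75 bases. In the RHEB window ACGTG began at 81 bases and CCAAT at 104 and 51 bases. DDIT4 and RHEB thus held the same 2 motifs, and any relation of motifs to the drug response was not tested. These motifs are common: of 34788 distinct windows of the same length, 18.5% held ACGTG and 32.0% held CCAAT. The EIF4EBP2 window held no match to the 7 motifs. Of the 7 members with a window in the table, TSC2 was the one with the ATF4 composite core (at 110 bases, beside an E-box at 114, in 1 of its 2 windows, the other holding no match to the 7 motifs), a motif in 3.16% of all windows, and TSC2 was not called on the drug. The other shares were 1.64% for the cAMP response element, 6.31% for the E-box, 2.98% for the FOXO site and 10.8% for the TATA box. A match is a run of letters and not a measured binding site.

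DDIT4L, the paralogue also known as REDD2 (ENSG00000145358.6, chromosome 4, 100185870 to 100190782, minus strand), was listed at 0 counts in all 9 libraries. A count of 0 allows up to 0.0883 CPM in the library of lowest total, counting error only. Some genes that most cells use were also listed at or near 0, among them TFE3 and EEF2K (at most 0.11 CPM as a group mean), and SESN2 was at 0 throughout, so these entries are given as listed.

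The inhibitors that sit on the complex itself were higher on the drug. DEPTOR, which binds mTOR and inhibits both of its complexes (ENSG00000155792.10, chromosome 8, 119873717 to 120050913, plus strand), was scarce. It stood at 2.28, 1.99 and 2.18 CPM in the knockout, at 2.00, 1.83 and 1.95 in wild-type cells on palbociclib and at 0.961, 1.09 and 1.59 on vehicle, from 38 to 92 counts per library. All 6 palbociclib libraries exceeded all 3 vehicle libraries, and set 3 was the highest of the vehicle libraries. The wild-type means of 1.93 ± 0.087 CPM on palbociclib and 1.22 ± 0.33 on vehicle differed by 0.67 ± 0.20 on the log2 scale (edgeR adjusted p = 0.00867), a call that was lost without set 1 of vehicle (0.53, adjusted p = 0.0521). Knockout and wild-type cells on the drug did not differ past the threshold (0.16 ± 0.18, edgeR adjusted p = 0.553), and the knockout was above vehicle (0.83 ± 0.19, edgeR adjusted p = 0.00107). The overlapping antisense DEPTOR-AS1 had 55 counts over all libraries, 9.11% of those of DEPTOR.

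AKT1S1 encodes PRAS40, a raptor-binding inhibitor that AKT releases by phosphorylation (ENSG00000204673.11, chromosome 19, 49869033 to 49878459, minus strand). It stood at 162, 166 and 158 CPM in the knockout, at 168, 159 and 154 in wild-type cells on palbociclib and at 148, 139 and 131 on vehicle. Each palbociclib library again lay above each vehicle library, but the step was small. Wild-type means were 160.4 ± 7.16 CPM on palbociclib and 139.5 ± 8.58 on vehicle (log2 fold change 0.20 ± 0.052, edgeR adjusted p = 0.00378). The knockout difference on the drug was 0.01 ± 0.052 (edgeR adjusted p = 0.869), and the knockout was 0.22 ± 0.052 above vehicle (edgeR adjusted p = 0.00165). Exons of other genes share 8.75% of the AKT1S1 exonic bases.

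**Figure D2:**
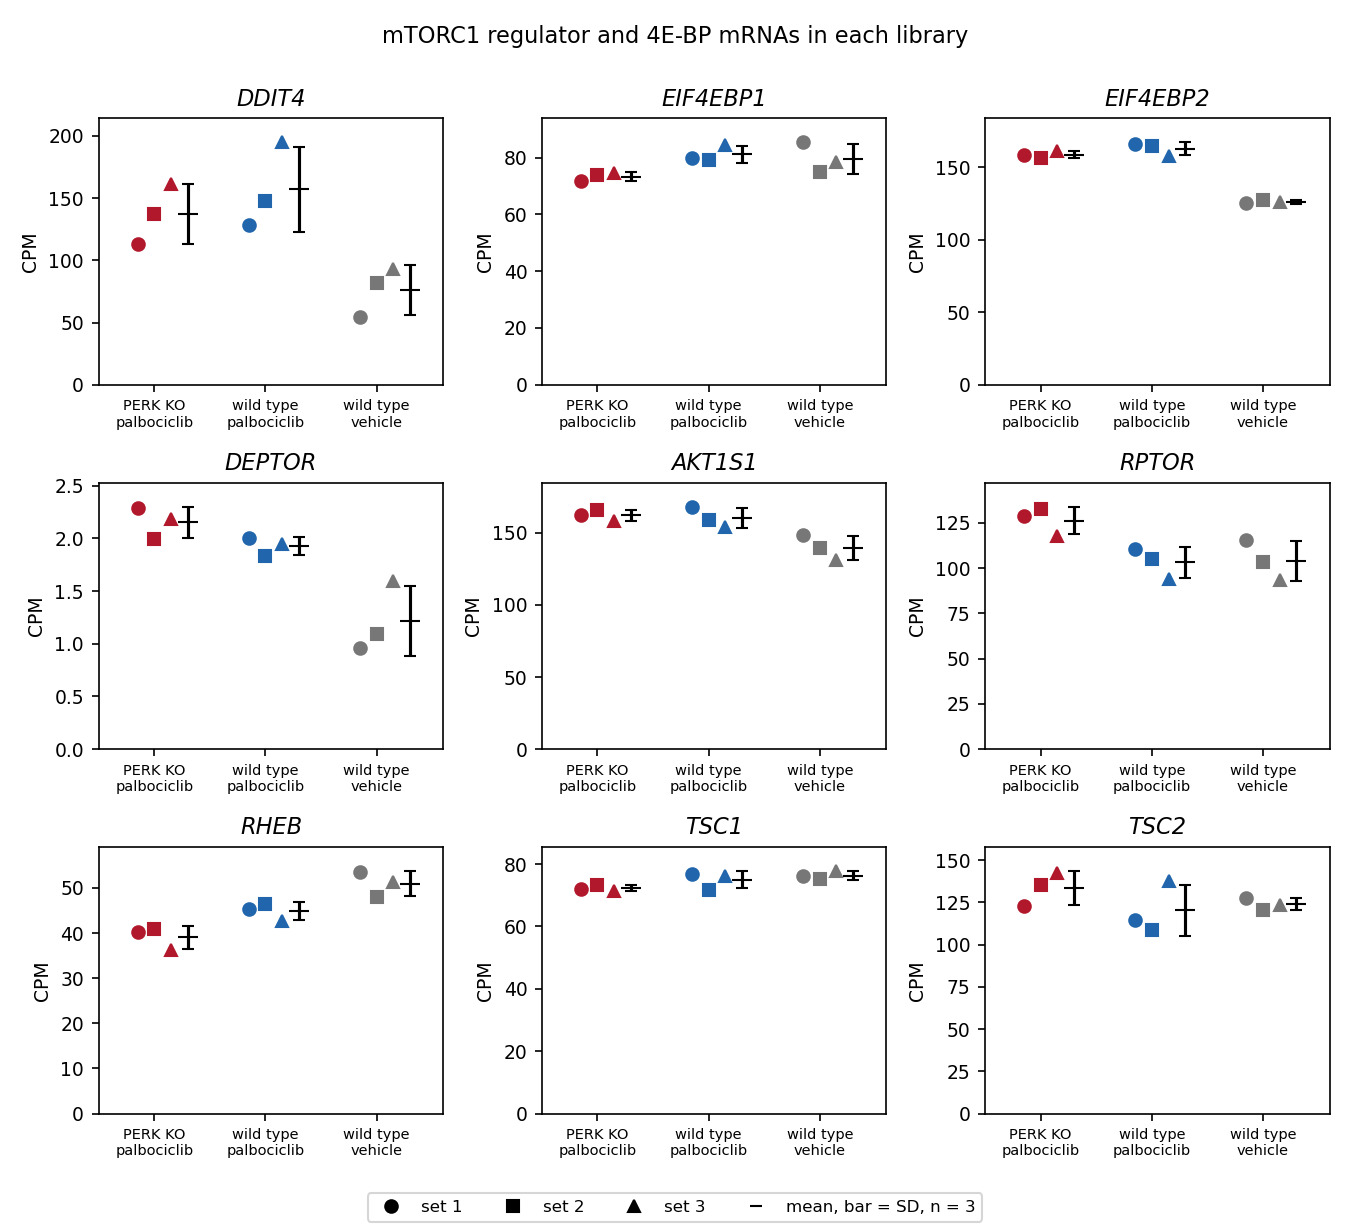
CPM (y axes, each from 0) of the 9 members with counts in PERK knockout cells on palbociclib, wild-type cells on palbociclib and wild-type cells on vehicle (x axes). Symbols are libraries by set and bars are mean ± SD (n = 3). DDIT4, EIF4EBP2, DEPTOR and AKT1S1 have all 6 palbociclib libraries above the vehicle libraries, while RHEB has them below.

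Neither large subunit of the TSC complex was called in any of the 3 comparisons. TSC1 encodes hamartin, its stabilising subunit (ENSG00000165699.15, chromosome 9, 132891348 to 132946874, minus strand), and was the member with the narrowest span between group means, 0.08 on the log2 scale. It stood at 72.1, 73.3 and 71.5 CPM in the knockout, at 76.8, 71.8 and 76.1 in wild-type cells on palbociclib and at 76.2, 75.05 and 77.7 on vehicle. The knockout libraries all lay below the vehicle libraries, but by little (log2 fold changes -0.03 ± 0.047 for the drug, -0.05 ± 0.047 for the knockout on the drug and -0.08 ± 0.047 for the knockout against vehicle, with edgeR adjusted p-values of 0.683, 0.456 and 0.174).

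TSC2, which encodes tuberin, the subunit that acts on RHEB (ENSG00000103197.19, chromosome 16, 2047465 to 2089487, plus strand), stood at 123, 135 and 142 CPM in the knockout, at 114, 109 and 138 in wild-type cells on palbociclib and at 128, 120.5 and 124 on vehicle. The 3 ranges overlapped. Palbociclib did not change it past the threshold in wild-type cells (-0.04 ± 0.078, edgeR adjusted p = 0.703). The knockout difference on the drug was 0.15 ± 0.078 (edgeR adjusted p = 0.177) and was called with the set as a block (adjusted p = 0.0283) or without set 3 of wild-type palbociclib (0.24, adjusted p = 0.00422), with the knockout above wild type in 3 of 3 sets. The median over 196 tested genes within 5 Mb was higher still, at 0.23, so that TSC2 stood at -0.08 relative to its neighbourhood. TSC2 overlaps PKD1 and NTHL1 on the opposite strand, which held 36000 and 5107 counts against 43324 for TSC2, and 6.01% of its exonic bases are shared with other genes.

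RHEB, the GTPase that activates mTORC1 and the target of the TSC complex, was the member that fell at each step (ENSG00000106615.10, chromosome 7, 151466012 to 151520120, minus strand). It stood at 40.1, 40.8 and 36.2 CPM in the knockout, at 45.4, 46.5 and 42.8 in wild-type cells on palbociclib and at 53.5, 48.0 and 51.4 on vehicle. The 3 groups did not overlap, with the knockout lowest and vehicle highest. On palbociclib the wild-type mean was 44.9 ± 1.95 CPM, against 50.9 ± 2.78 on vehicle (log2 fold change -0.18 ± 0.060, edgeR adjusted p = 0.0178). The knockout mean of 39.05 ± 2.48 CPM was below wild type on the drug (-0.20 ± 0.060, edgeR adjusted p = 0.0158) and below vehicle (-0.38 ± 0.060, edgeR adjusted p = 1.92e-05). The direction was the same in 3 of 3 sets for each comparison.

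The RHEB call of the knockout against vehicle held under all 17 alternatives, and the calls of the separate steps did not. The drug call was lost with DESeq2 (adjusted p = 0.0555) and without set 1 of vehicle (0.0743) or set 3 of wild-type palbociclib (0.147). The genotype call was lost without set 1 or 2 of wild-type palbociclib (0.0557 and 0.0835) or set 3 of the knockout (0.11). The median of 59 tested genes within 5 Mb was -0.02 in the genotype comparison and -0.11 in the drug comparison, which left RHEB at -0.18 and -0.07 relative to its neighbourhood. The processed pseudogene RHEBP2 had 515 counts, 3.34% of those of RHEB.

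RPTOR encodes raptor, the scaffold that brings substrates to mTORC1 (ENSG00000141564.16, chromosome 17, 80544819 to 80966371, plus strand), and was called by genotype on the drug and not by the drug itself. It stood at 128, 132 and 118 CPM in the knockout, at 110.4, 105 and 93.8 in wild-type cells on palbociclib and at 115, 103 and 93.3 on vehicle. All knockout libraries exceeded all wild-type libraries of either treatment, and within each group set 3 was the lowest. The drug difference in wild-type cells was -0.01 ± 0.077 (edgeR adjusted p = 0.916). Knockout and wild-type means on the drug were 126 ± 7.61 and 103 ± 8.48 CPM (a log2 difference of 0.29 ± 0.077, edgeR adjusted p = 0.0112), and the knockout was 0.28 ± 0.077 above vehicle (edgeR adjusted p = 0.00709). Without set 2 of the knockout the genotype call was lost (0.26, adjusted p = 0.05). The 166 tested genes within 5 Mb of RPTOR had a median of 0.23 in the same comparison, leaving 0.07 for RPTOR, and the part of the neighbourhood in the difference was not tested.

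**Figure D3:**
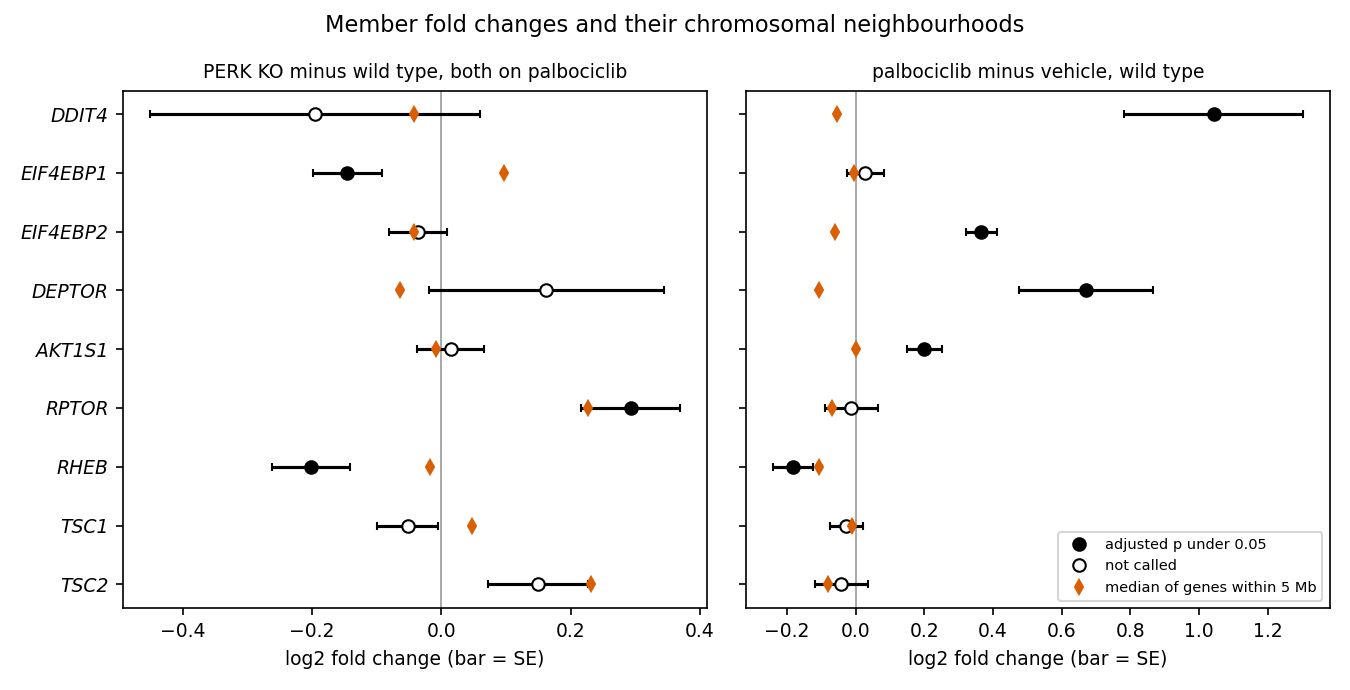
Log2 fold changes (x axes, bars are SE) of the 9 tested members for PERK knockout against wild type on palbociclib and for palbociclib against vehicle in wild-type cells, with filled circles for adjusted p under 0.05 and orange diamonds for the median of tested genes within 5 Mb on the same chromosome. RPTOR and TSC2 lie close to neighbourhood medians of 0.23 in the genotype comparison, while EIF4EBP1 lies below a median of 0.10, and the 4 members that rose on the drug lie away from their neighbours.

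The 4E-BPs differed in their values. EIF4EBP2, the 4E-BP that is prominent in brain (ENSG00000148730.7, chromosome 10, 70404379 to 70428618, plus strand), stood at 159, 156 and 161 CPM in the knockout, at 166, 165 and 158 in wild-type cells on palbociclib and at 125, 128 and 126 on vehicle. The palbociclib libraries of both genotypes overlapped and lay well above the vehicle libraries, which differed from each other by less than 3 CPM. Wild-type means were 163 ± 4.51 CPM on palbociclib and 126 ± 1.29 on vehicle, a 1.29-fold rise (log2 fold change 0.37 ± 0.045, edgeR adjusted p = 1.56e-06). The knockout difference on the drug was -0.04 ± 0.044 (edgeR adjusted p = 0.595), and the knockout was 0.33 ± 0.045 above vehicle (edgeR adjusted p = 3.42e-06). These calls held under all 17 alternatives.

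EIF4EBP1, the best studied 4E-BP and a target of ATF4 in mouse pancreatic beta cells (ENSG00000187840.5, chromosome 8, 38030341 to 38060365, plus strand), stood at 71.6, 73.8 and 74.6 CPM in the knockout, at 79.7, 79.2 and 84.5 in wild-type cells on palbociclib and at 85.4, 74.8 and 78.4 on vehicle. Palbociclib did not change it past the threshold (0.03 ± 0.053, edgeR adjusted p = 0.693). Every knockout library was below every wild-type library, with means of 73.3 ± 1.56 CPM in the knockout and 81.1 ± 2.91 in wild-type cells on the drug (a log2 difference of -0.15 ± 0.053 SE, edgeR adjusted p = 0.0474). This call was close to the threshold: it was lost with limma-voom (adjusted p = 0.0519) and without any 1 of the 6 libraries compared (0.0714 to 0.146). Its 61 tested neighbours within 5 Mb had a median of 0.10, so EIF4EBP1 stood at -0.24 relative to them. Against vehicle the knockout difference was -0.12 ± 0.053 (edgeR adjusted p = 0.0743), called with the set as a block in all 9 libraries (0.0318) but not in the 6 compared (-0.11, 0.0889), and called with library totals as the scaling (0.0219) and without set 2 of vehicle (0.028).

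The mRNA of the 4E-BPs was next set against that of their target. EIF4E, the cap-binding protein that the 4E-BPs hold, averaged 71.3 ± 3.74 CPM in the knockout, 89.9 ± 3.53 in wild-type cells on palbociclib and 109 ± 3.68 on vehicle, and fell in both comparisons (-0.27 ± 0.051 for the drug, edgeR adjusted p = 0.000234; -0.33 ± 0.052 for the knockout on the drug, edgeR adjusted p = 5.83e-05). Per kilobase of exon, the sum of EIF4EBP1 and EIF4EBP2 divided by EIF4E was 16.6, 17.8 and 19.1 in the knockout, 15.2, 14.5 and 16.4 in wild-type cells on palbociclib and 12.9, 11.4 and 11.3 on vehicle. The 3 groups did not overlap. The means of this ratio were 17.8 ± 1.25, 15.4 ± 0.925 and 11.9 ± 0.882, and each pair of groups gave a 2-sided exact permutation p = 0.1, the smallest that 3 libraries against 3 allow. Per kilobase of exon, EIF4EBP1 averaged 68.4, 75.6 and 74.1 CPM in the same order of groups, and EIF4EBP2 21.9, 22.4 and 17.4. From wild type to knockout on the drug neither 4E-BP mean was thus higher, and the higher ratio there reflects the lower EIF4E. The ratio of EIF4EBP1 to EIF4EBP2 was 3.13 ± 0.074 in the knockout, 3.38 ± 0.22 in wild-type cells on palbociclib and 4.26 ± 0.33 on vehicle (exact permutation p = 0.1 for each pair). With lengths from the longest coding transcript the first ratio was 15.2 in the knockout, 13.1 in wild-type cells on palbociclib and 10.1 on vehicle, in the same order. EIF4EBP3, the remaining 4E-BP, was listed at an average of at most 0.078 CPM in any group, and 73.4% of its exonic bases are shared with another gene on the same strand, so that its level cannot be read from these counts.

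**Figure D4:**
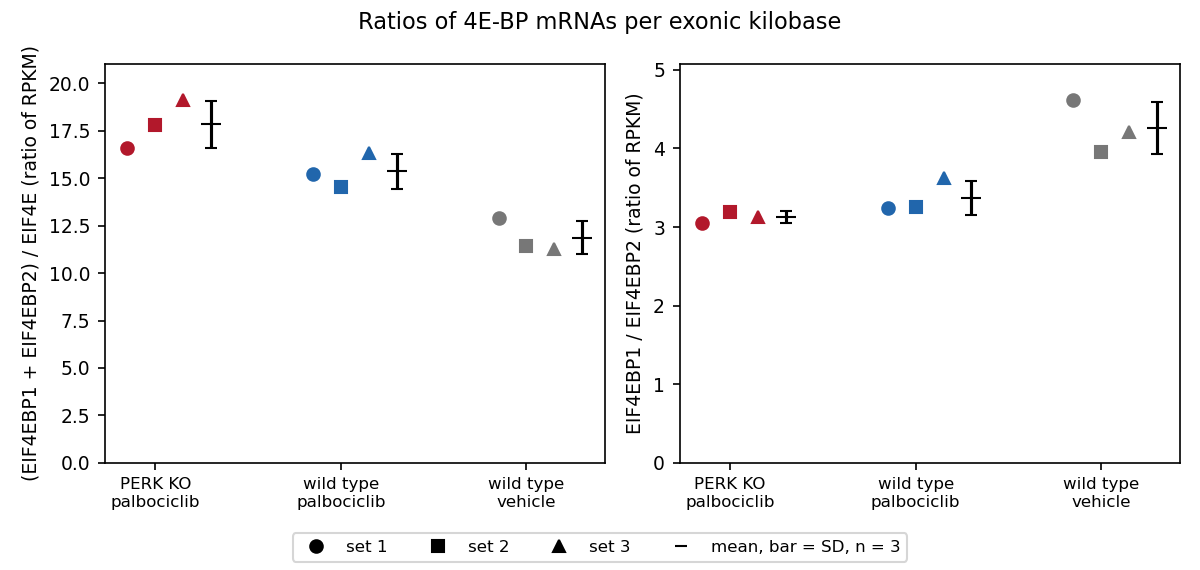
Ratio of EIF4EBP1 plus EIF4EBP2 to EIF4E and ratio of EIF4EBP1 to EIF4EBP2 (y axes, ratios of RPKM, from 0) in PERK knockout cells on palbociclib, wild-type cells on palbociclib and wild-type cells on vehicle, 1 symbol per library, with mean ± SD (n = 3). The first ratio is highest in the knockout (17.8) and lowest on vehicle (11.9), and the second is lowest in the knockout (3.13) and highest on vehicle (4.26).

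Levels of different members were compared per kilobase of exon (RPKM). In wild-type cells on palbociclib DDIT4 and EIF4EBP1 led, at 76.4 ± 16.6 and 75.6 ± 2.71 RPKM, and did not differ beyond their spread. AKT1S1 followed at 27.9 ± 1.25, EIF4EBP2 at 22.4 ± 0.622, RHEB at 12.7 ± 0.551 and RPTOR at 10.01 ± 0.823. TSC2 stood at 6.13 ± 0.776, TSC1 at 4.26 ± 0.154 and DEPTOR at 0.735 ± 0.0331. On vehicle EIF4EBP1 was highest, at 74.1 ± 5.03 RPKM, and DDIT4 was at 37.1 ± 9.69. The order in the middle depends on the length used: with the longest coding transcript RHEB, TSC2 and RPTOR had 21.6, 19.0 and 16.1 RPKM in wild-type cells on palbociclib.

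The number of members called is read against all tested genes. Palbociclib called 43.7% of the tested genes in wild-type cells (21.3% higher and 22.3% lower), and of the 9 tested members it called 4 higher (DDIT4, DEPTOR, EIF4EBP2 and AKT1S1) and 1 lower (RHEB). The median log2 fold change was 0.03 over the members and -0.02 over all tested genes. The knockout comparison on the drug called 27.9% of tested genes (14.9% higher and 13.0% lower), and 1 member higher (RPTOR) and 2 lower (RHEB and EIF4EBP1), with medians of -0.04 and 0.01. The model with the set as a block called 5 members, adding TSC2 and DDIT4. Knockout cells on the drug against wild-type cells on vehicle called 51.7% of tested genes (25.7% higher and 26.0% lower), and 5 members higher (DDIT4, DEPTOR, EIF4EBP2, AKT1S1 and RPTOR) and 1 lower (RHEB). Groups that do not overlap were found for 5 of the 9 members on the drug (51.6% of tested genes), 3 in the knockout on the drug (41.3%) and 8 in the knockout against vehicle (58.5%). By the adjusted p the shares of members called were 55.6%, 33.3% and 66.7% in the same order, a difference of under 2 members from the shares over all genes, and are not read as a result about the members. The 3 comparisons share libraries and are not independent. In size, 5.47% of tested genes had a larger drug response than DDIT4 in either direction, 15.02% a larger one than DEPTOR and 36.3% a larger one than EIF4EBP2.

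The other mTORC1 genes are given next, and counts in their lists stand beside the same shares of all tested genes. For the drug 43.7% were called (21.3% higher and 22.3% lower). For the knockout on the drug 27.9% were called (14.9% higher and 13.0% lower). No test of these lists was made. MTOR, the kinase, averaged 140.4 ± 5.3 CPM in the knockout, 144 ± 5.99 in wild-type cells on palbociclib and 139.7 ± 5.71 on vehicle and was called in no comparison (edgeR adjusted p = 0.65 for the knockout on the drug and 0.528 for the drug). Of 6 genes of the core and its assembly, palbociclib lowered 4 and left 2 uncalled, with a median of -0.25. MLST8, a core subunit, fell by 0.36 (edgeR adjusted p = 1.9e-05), TTI1, a chaperone cofactor of mTOR, by 0.33 (2.65e-05), RHEBL1, a relative of RHEB, by 0.41 (0.0189) and TELO2, the partner of TTI1, by 0.18 (0.0245). The TELO2 call was lost with DESeq2 (0.0517), in the 6 libraries compared (0.0806) and without set 1 of vehicle (0.129) or set 1 or 2 of wild-type palbociclib (0.12 and 0.112), and the RHEBL1 call without set 3 of vehicle (0.105) or the same palbociclib libraries (0.0675 and 0.0624).

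In the knockout on the drug, 2 of these 6 were higher and 3 lower. TBC1D7, the small subunit of the TSC complex, averaged 16.0 ± 0.715 CPM in the knockout and 20.2 ± 0.545 in wild-type cells (-0.33 ± 0.072, edgeR adjusted p = 0.00144). RHEBL1 was lower by the same comparison (-0.55 ± 0.15, edgeR adjusted p = 0.00688), as RHEB was, and TTI1 was lower too (-0.19, adjusted p = 0.00785, and 0.0526 without set 2 of wild-type palbociclib). MLST8 and TELO2, which like TSC2 lie on chromosome 16, were higher (0.24 and 0.20, edgeR adjusted p = 0.00249 and 0.0194), and the median of their 5 Mb neighbourhoods was 0.23. Without set 1 or 2 of wild-type palbociclib or set 2 or 3 of the knockout the TELO2 call was lost (0.107, 0.102, 0.083 and 0.0526).

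Among 29 tested genes of amino acid sensing at the lysosome, palbociclib raised 5 and lowered 3 (27.6% called, against 43.7% of all tested genes). SESN3, a sestrin, averaged 137 ± 6.04 CPM on palbociclib and 66.8 ± 17.1 on vehicle in wild-type cells (1.04 ± 0.18 on the log2 scale, edgeR adjusted p = 0.00359), a response of the size of that of DDIT4. Like DDIT4 it stayed high in the knockout, at 157 ± 11.2 CPM, with a difference from wild type on the drug that was not called (0.20 ± 0.18, edgeR adjusted p = 0.483) with all 9 libraries, with or without the block, but was called in the 6 libraries compared (0.0106, and 5.55e-06 with the set as a block) and without set 1 of vehicle (0.0158), with the knockout above wild type in 3 of 3 sets. SEH1L, a subunit of GATOR2, fell by 0.47 on the drug (edgeR adjusted p = 1.22e-07) and was lower again in the knockout (-0.52, edgeR adjusted p = 7.6e-08), where its neighbourhood median was -0.48. KICS2, a subunit of KICSTOR, was lower in the knockout (-0.51, edgeR adjusted p = 0.00209). The knockout comparison on the drug called 6 of the 29 higher and 5 lower.

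Upstream kinases gave a mixed picture, with 3 of 17 higher and 4 lower on palbociclib. AKT1, which phosphorylates both TSC2 and PRAS40, rose by 0.25 (edgeR adjusted p = 0.000225), while PRKAA2 and STK11, of the AMPK arm that restrains mTORC1, fell by 0.26 and 0.22 (edgeR adjusted p = 0.00429 and 0.00336). PRKAB2, a regulatory subunit of AMPK named after its values were seen, rose by 0.22 (edgeR adjusted p = 0.000632). AKT2, also named after its values were seen, went the other way from AKT1. It averaged 165 ± 3.9 CPM on palbociclib and 184 ± 3.64 on vehicle in wild-type cells. In the knockout on the drug 2 of the 17 were higher and 3 lower, among them PRKAA1, the other catalytic subunit of AMPK (-0.21, edgeR adjusted p = 0.00259). PRKAA1 was lower on palbociclib in wild-type cells as well (-0.19, edgeR adjusted p = 0.00323). Of 4 mTORC2 subunits 1 rose and 1 fell on the drug.

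Downstream of the 4E-BPs, palbociclib raised 4 and lowered 7 of 20 tested substrates and initiation factors, with a median of -0.12. PDCD4, an inhibitor of the helicase eIF4A that S6 kinase marks for degradation, averaged 85.2 ± 4.6 CPM in the knockout, 84.9 ± 4.12 in wild-type cells on palbociclib and 33.4 ± 1.65 on vehicle. Its drug response was larger than that of any other tested gene of these 5 pathway lists (log2 fold change 1.34 ± 0.057, edgeR adjusted p = 9.61e-13), and the knockout difference on the drug was 0.00 ± 0.055 (edgeR adjusted p = 0.962). RPS6KB1, the S6 kinase, fell by 0.19 on the drug (edgeR adjusted p = 0.00433, and 0.0546 without set 3 of wild-type palbociclib). In the knockout on the drug 3 of the 20 were higher and 3 lower. EIF4B, a helicase cofactor, was higher (0.33, edgeR adjusted p = 1.22e-05), GRB10, an adaptor that mTORC1 stabilises, was lower (-0.45, 8.04e-07), and EIF4G3, a scaffold of the cap complex, was lower (-0.34, 0.000266).

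**Figure D5:**
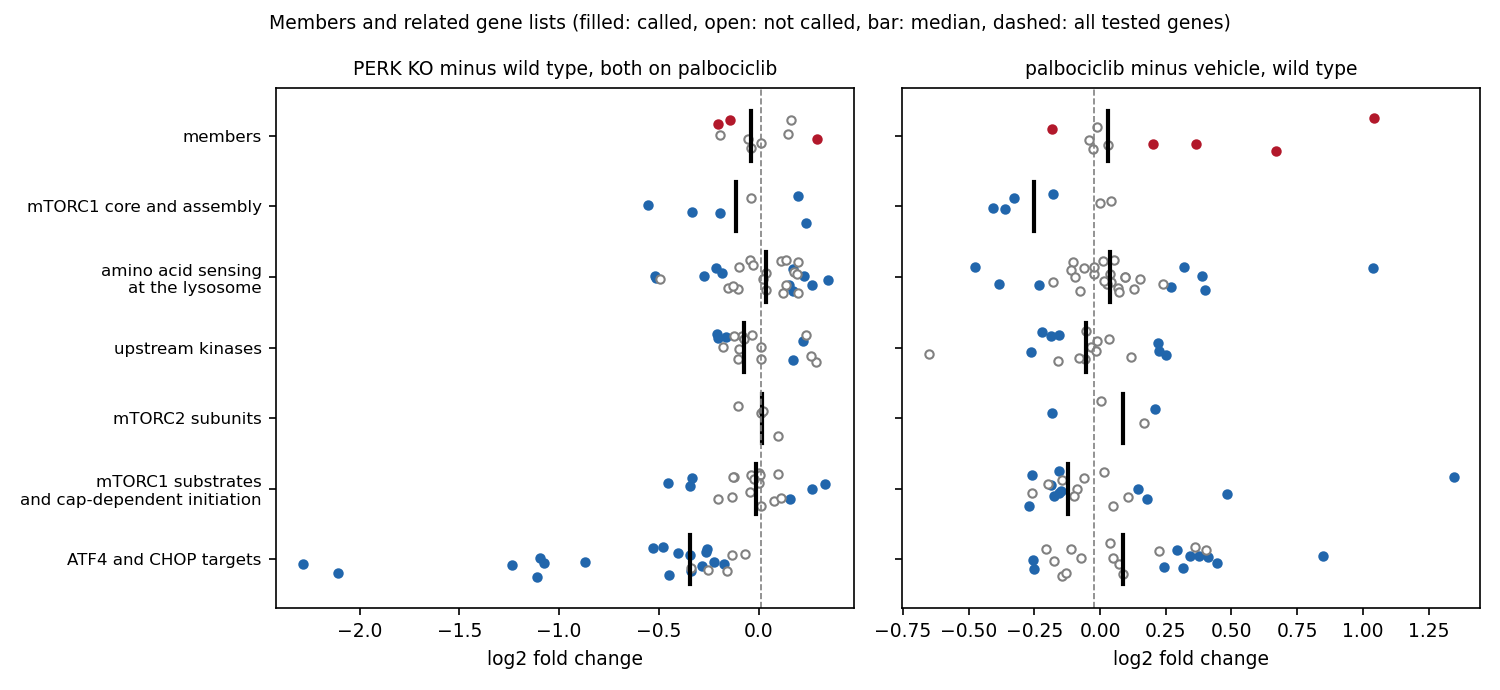
Log2 fold changes (x axes) of the tested members and of the genes of 6 related lists (rows) for PERK knockout against wild type on palbociclib and for palbociclib against vehicle in wild-type cells. Filled circles are called genes, open circles are not called, black bars are list medians and the dashed line is the median of all tested genes. ATF4 and CHOP targets lie left of the dashed line in the knockout (median -0.34), where the members centre on -0.04.

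DDIT4 and EIF4EBP1 are both known targets of the ATF4 arm that PERK starts, so their values are set beside the other targets. Of 23 tested targets of ATF4 and CHOP, 18 were lower in the knockout on the drug and the other 5 were not called, with a median of -0.34. Of all tested genes, 13.0% were called lower in that comparison. TRIB3, an inhibitor of AKT, averaged 14.4 ± 1.13 CPM in the knockout and 30.8 ± 3.43 in wild-type cells (-1.10 ± 0.079, edgeR adjusted p = 3.04e-09), with a neighbourhood median of -0.57. CHAC1 (-1.07), CTH (-1.11), FGF21 (-2.11) and INHBE (-2.29), which act in glutathione breakdown, cysteine synthesis and as secreted factors, were lower too (edgeR adjusted p at most 2.6e-05), and ATF4 itself was at 547 ± 15.03 CPM in the knockout and 617 ± 18.4 in wild-type cells (-0.17 ± 0.046, edgeR adjusted p = 0.00735). Against these, DDIT4 at -0.20 (not called without the block) and EIF4EBP1 at -0.15 (called at the threshold) lay above the list median. With the set as a block both were called lower, DDIT4 at -0.19 (edgeR adjusted p = 0.00498) and EIF4EBP1 at -0.15 (0.0127). Both were lower in the knockout in 3 of 3 sets. On palbociclib against vehicle in wild-type cells, 8 of the 23 were higher and 2 lower with a median of 0.09 (43.5% called, against 43.7% of all tested genes). DDIT4 rose by 1.04, more than any gene of that list. ATF4 was not called in that comparison (0.07 ± 0.046, edgeR adjusted p = 0.212), but was with the set as a block in the 6 libraries compared (0.0304). The list was chosen with results of these data known, and no test of the list was made.

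The genes whose pattern over the 9 libraries was most like that of DDIT4 were H6PD, CRYL1 and SHC2, with root mean square differences of 0.14, 0.14 and 0.14 in centred log2 CPM, against a span of 1.05 between DDIT4 group means. For DEPTOR they were FAM8A1, PARP8 and TSC22D1 (0.085, 0.085 and 0.097, against a span of 0.64). The other 7 tested members had group means spanning less than 0.5 and were not matched.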

How the data were processed

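The authors deposited whole-number counts per gene, unnormalized, with a column for each library. Per the labels' protocols, poly-T beads captured the mRNA and random hexamers primed the cDNA. The submitters' processing notes name STAR 2.7.9a, the build hg38, and DESeq2 without a role. Counter, strand setting and annotation: not given in the sources used here. IDs were matched to GENCODE 29 on GRCh38 without their version (58261 of 70116).

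Counts were tested with edgeR 4.0.16 in R 4.3.3, with limma 3.58.1, and figures drawn in Python 3.11.15: TMM factors (0.977 to 1.01), the default low-count filter on groups, 1 robust quasi-likelihood model of 3 groups and 9 libraries, 6 residual degrees of freedom, Benjamini-Hochberg adjustment over 19408 genes. The tested genes held 99.91% of counts and the biological coefficient of variation was 5.99%. Libraries held 33674039 to 42577874 counts, and floors and intervals cover counting error only. Replicates differed by more than sampling noise (3.45 to 10.7 chi-square units per degree of freedom). RPKM divides CPM by exon union length. The script was tested on simulated data. Alternatives used other scaling, no filter, DESeq2 1.42.0, limma-voom, 6 libraries, a set block and each library left out, and, chosen after seeing the data, the block with 6 libraries and transcript lengths.

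The groups share set numbers. Library deviations from their group mean correlated at 0.176 to 0.541 in all 9 same-set pairs and at -0.401 to 0.0714 in different-set pairs (12930 genes with a mean log2 CPM above 1), so the numbers were taken to pair the libraries, from the data and not from a label.

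The members and gene lists were chosen with earlier results of these data known. Of each list the text may name called genes with a mean of at least 1 CPM and a log2 change of at least 0.5, or else the 3 largest, plus partners of the members. Overlapping genes, markers and genes listed near 0 were named after their values were seen.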

Additional observations from a re-analysis of the deposited data

How the results depend on the processing

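Over 17 alternatives the 27 tested member results gave 459 values: 415 kept their direction and side of the threshold, 21 lost the call, 8 gained it, and 15 changed sign, all of them uncalled in both settings. Counts of called genes stayed within 1.5 times the value reported: 7357 to 9764 for palbociclib against vehicle, 4276 to 7798 for the knockout on the drug, and 9049 to 11154 for the knockout against vehicle. Called members numbered 5 for the drug (3 to 5 with a library left out, the 3 without set 1 of vehicle), 3 for the knockout on the drug (1 to 3 with a library left out, and 5 with the set as a block in all 9 libraries or in the 6 compared), and 6 for the knockout against vehicle (5 to 7 over all alternatives). The call was 1 member without set 1 or 2 of wild-type palbociclib, or without set 2 or 3 of the knockout. The cause of these shifts was not tested beyond the smaller number of samples. Beside DDIT4 and TSC2 in the genotype comparison and EIF4EBP1 in the knockout against vehicle, the block changed no member's call, and in the 6 libraries compared it left EIF4EBP1 uncalled against vehicle.

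The values that changed sign belonged to uncalled differences near 0 on the log2 scale, given here with the range when each library was left out. For the drug, RPTOR (-0.01; -0.086 to 0.075) was at 0.00559 with the size factors of DESeq2, 0.0059 with DESeq2 itself, 0.0047 without the filter, 0.017 in the 6 libraries compared and 0.019 there with the block. TSC1 (-0.03, range -0.045 to 0.0018) was at 0.0022 in the 6 libraries compared and 0.0017 there with the block. The other ranges for the drug were -0.016 to 0.082 for EIF4EBP1, -0.13 to 0.024 for TSC2, -0.035 to 0.062 for TBC1D7 and -0.11 to 0.015 for TRIB3. For the knockout on the drug, AKT1S1 (-0.029 to 0.0501), PDCD4 (-0.041 to 0.045) and PRKAB2 (-0.016 to 0.034) were at -0.017, -0.027 and -0.0202 with library totals. With the size factors of DESeq2, with DESeq2 and without the filter, PDCD4 was at -0.0073, -0.0073 and -0.00783, and PRKAB2 at -0.000841, -0.000774 and -0.00171. TP53INP1 ranged from -0.0297 to 0.157. For the knockout against vehicle, MTOR (-0.017 to 0.039) and TELO2 (-0.019 to 0.076) were at -0.025 and -0.0097 with library totals.

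List counts moved too. In the knockout on the drug, lower ATF4 and CHOP targets ranged from 16 to 21, higher sensing genes from 2 to 13, lower ones from 4 to 8, lower upstream kinases from 1 to 4, and lower hypoxia-inducible genes from 4 to 9. On palbociclib, lower core genes ranged from 2 to 4, lower substrates and initiation factors from 3 to 9, higher sensing genes from 5 to 9, lower ATF4 and CHOP targets from 1 to 5, and higher glucocorticoid-inducible genes from 1 to 4. Depth limits DEPTOR most, with 38 to 92 counts per library, and DDIT4L could not be tested. Without the block the SE of the DDIT4 genotype difference was 0.26, larger than the difference itself.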

Other observations

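Hypoxia, p53 and glucocorticoids are other known inducers of DDIT4, and genes that answer to each were counted for palbociclib against vehicle in wild-type cells, where 43.7% of all tested genes were called. Of 14 hypoxia-inducible genes, 8 rose and the other 6 were not called (median 0.32). The genes that rose included P4HA1, a collagen prolyl hydroxylase (196 ± 30.4 CPM on palbociclib and 95.4 ± 13.0 on vehicle; log2 fold change 1.04 ± 0.16, edgeR adjusted p = 0.0016), PDK1, which restrains pyruvate entry into mitochondria (0.93 ± 0.18, 0.00257), and BNIP3L, a mitophagy receptor (0.52 ± 0.13, 0.0104). Of 11 tested p53 targets 6 rose (median 0.23), with TP53INP1 at 1.40 ± 0.15 (edgeR adjusted p = 0.000111) and ZMAT3 at 0.92 ± 0.059 (3.46e-10). Of 8 glucocorticoid-inducible genes 2 rose and 2 fell: KLF9, a transcription factor, rose by 0.73 (edgeR adjusted p = 4.66e-08), and FKBP5, a receptor chaperone, fell by 0.55 (2.85e-07). No test of the lists was made.

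In the knockout on the drug, 27.9% of all tested genes were called (14.9% higher and 13.0% lower). There, 5 of the 14 hypoxia-inducible genes were lower and 1 higher (4 to 9 lower over the alternatives), with a median of -0.28 beside -0.20 for DDIT4. The lower genes included VEGFA at -0.71 ± 0.14 (edgeR adjusted p = 0.00827), BNIP3L at -0.63 ± 0.13 (0.00665, beside a neighbourhood median of -0.56) and P4HA1 at -0.60 ± 0.16 (0.0283). The P4HA1 call was lost without set 2 or 3 of wild-type palbociclib (0.0732 and 0.063) or set 1 or 2 of the knockout (0.0712 and 0.0809), and without the low-count filter (0.0693). Of 11 tested p53 targets, 3 were higher and the other 8 were not called (median 0.01). TP53INP1 was among those not called (0.07, edgeR adjusted p = 0.77). Of 8 tested glucocorticoid-inducible genes, 3 were lower and the other 5 were not called (median -0.10). FKBP5 was lower, at -0.74 (edgeR adjusted p = 1.62e-08), and KLF9 was not called (0.07, edgeR adjusted p = 0.494). These lists were not tested either.

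Some of these genes shared the set order of DDIT4 and others did not. In the blocked model set 3 exceeded set 1 by 0.62 for DDIT4, 0.41 for P4HA1, 0.49 for PDK1, 0.33 for BNIP3L, 0.36 for VEGFA and 0.37 for TP53INP1 on the log2 scale, with adjusted p-values between sets of 8.09e-08, 4.5e-08, 2.9e-05, 7.65e-06, 2.09e-06 and 1.63e-05, against 8.07% of tested genes called between sets. ZMAT3 had the opposite order (-0.14, adjusted p = 0.0395), and KLF9 and FKBP5 were not called between sets (0.0698 and 0.422). Among the members RPTOR had the opposite order too (-0.22, adjusted p = 0.00169), and the other 7 tested members were not called (0.117 to 0.97). What differed between the sets was not tested.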
